A study of Bos taurus with 18 samples.

Results

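Interferon-stimulated genes are switched on when type I interferon, released after a cell senses viral nucleic acid, binds its receptor and activates STAT transcription factors. In blood leukocytes their transcripts are a common readout of interferon exposure, and in cattle they are also known to rise in circulating leukocytes in early pregnancy, when the embryo secretes interferon tau. The 6 members described here cover 4 kinds of antiviral effector. MX1 and MX2 encode dynamin-like GTPases that trap viral components. ISG15 encodes a ubiquitin-like protein that is attached to other proteins. RSAD2 encodes viperin, an enzyme that makes a chain-terminating nucleotide. OAS1Y and OAS2 encode oligoadenylate synthetases, which sense double-stranded RNA and activate RNase L.

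The members were chosen by Ensembl identifier: ENSBTAG00000030913 (MX1), ENSBTAG00000008471 (MX2), ENSBTAG00000014707 (ISG15), ENSBTAG00000016061 (RSAD2), ENSBTAG00000039861 (OAS1Y) and ENSBTAG00000014628 (OAS2). All 6 were among the 30162 features of the count table, and all 6 were among the 14446 that passed the filter on low counts. The pairing of identifier and symbol comes from that choice. Neither the deposited files nor the RefSeq gene table of assembly ARS-UCD2.0 pairs Ensembl identifiers with symbols (0 identifiers matched). In the RefSeq table MX2 and MX1 are direct neighbours. OAS2 and OAS1Y are neighbours that overlap, and OAS1X, a further oligoadenylate synthetase gene, lies next to OAS1Y. Whether reads were counted by strand is not stated. Reads from the overlap, or from stretches shared by close copies of an OAS gene, cannot be assigned with certainty and the OAS values are uncertain in that respect.

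The libraries came from leukocytes of 18 female cattle: 6 F1 hybrids labelled Red Angus x Droughtmaster, 6 Droughtmaster and 6 Red Angus. Red Angus is a Bos taurus beef breed and Droughtmaster a tropical beef breed that carries zebu (Bos indicus) ancestry. All 18 animals carry the heat stress label and were described as healthy, with blood taken from the tail vein, and no unstressed group was analysed here. Each library is a separately named animal. The labels give no age, parentage, batch or collection date, so the p-values measure the spread between these animals only.

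Libraries held 11639027 to 24117615 counts and 15507 to 19605 features with at least 1 count. Droughtmaster replicate 3 stood apart: 44.6% of its counts fell on a single feature that held no more than 0.409% of any other library. The breed comparisons that use it and the count of correlated pairs are also given without it. Levels are CPM, counts scaled to a fixed library total, with library sizes adjusted by TMM, a method that corrects for such composition effects. Because these are bulk leukocyte samples, fewer cells of a type and less RNA per cell cannot be told apart. Marker lists for blood cell types could not be looked up, since none of their symbols could be paired with an identifier, so the leukocyte label was not checked.

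The members differed far more between animals than between breeds. Red Angus replicate 6 had the highest level of all 18 libraries in 6 of 6 genes, a position it held in 4.09% of all 14446 features. Its own library measures were unremarkable, with 20630981 counts and 17492 features with counts. At the other end, Droughtmaster replicates 4, 5 and 6 had mean ranks of 14.5, 16.7 and 16.2 out of 18 over the 6 genes. By edgeR, 0 of 6 members passed between any breeds in the fit of all 18 libraries. By DESeq2 MX1 passed between Droughtmaster and Red Angus, where 1037 features passed in all, against 376 by edgeR.

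**Figure D1:**
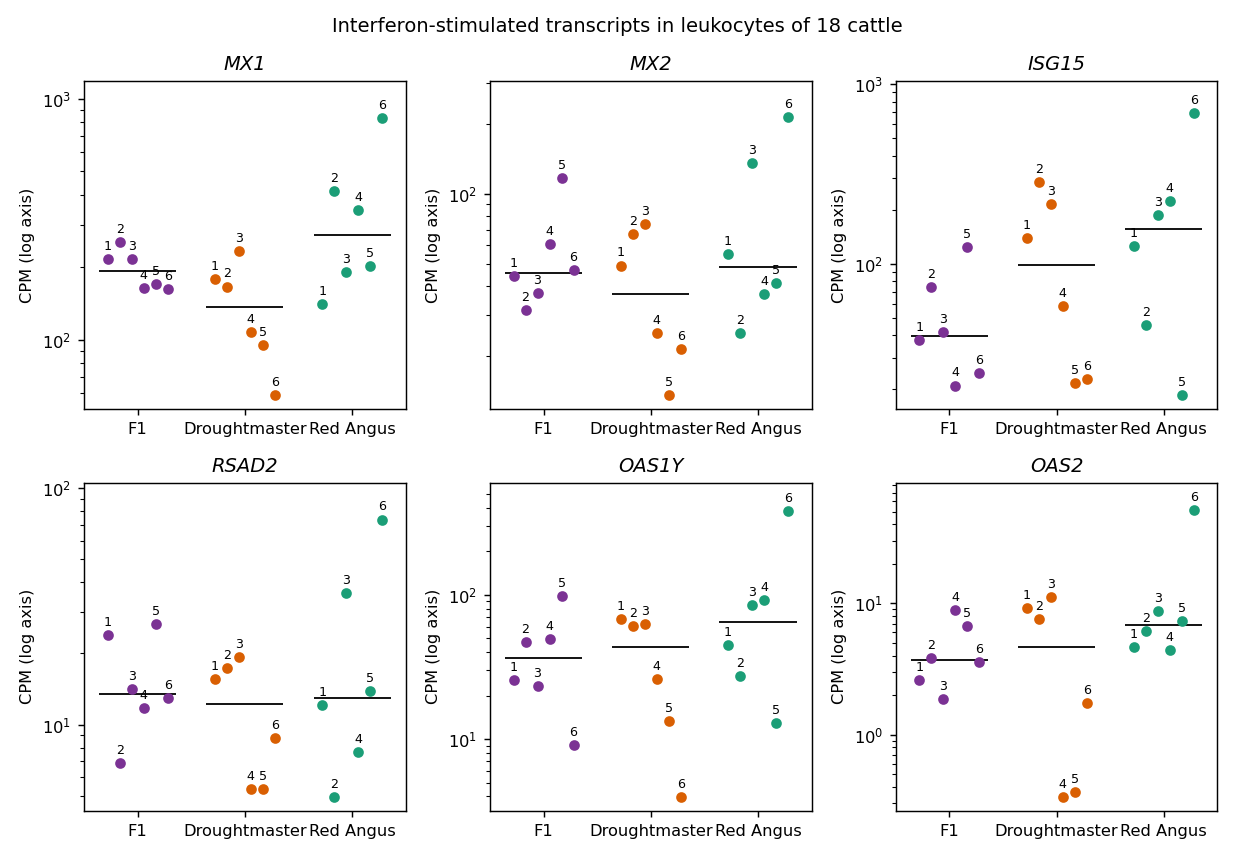
Level of each transcript in CPM (log axis) in every library, by breed. Each point is an animal, the number is its replicate and the line is the breed median (n = 6). Red Angus replicate 6 is the highest point in every panel, and Droughtmaster replicates 1 to 3 lie above replicates 4 to 6 in every panel.

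MX1, the antiviral GTPase long used as an interferon marker in cattle blood, was the member with the clearest ordering of breeds. In F1 hybrids it measured 162 CPM at the lowest, 194 at the median and 256 at the highest. In Droughtmaster the values were 58.8, 137 and 234 CPM. In Red Angus they were 141, 273 and 831 CPM. All 3 breeds overlapped, although 3 of 6 Droughtmaster animals were under the whole Red Angus range, a count that OAS2 shared. How often other features reach that count was not determined. Differences between breed means made up 37.5% of the variance of MX1 on the log2 scale, more than for any other member. This share is not adjusted for the number of breeds, so it is positive even where breed has no effect. It was not set against all features.

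MX2, the neighbouring GTPase gene, showed smaller differences between breed medians. It measured 31.6, 45.5 and 116 CPM (lowest, median and highest) in F1 hybrids. The same values were 13.6, 37.1 and 73.7 CPM in Droughtmaster and 25.1, 48.2 and 212 CPM in Red Angus. The upper ends of F1 and Red Angus were set by F1 replicate 5 at 116 CPM and by Red Angus replicates 3 and 6 at 136 and 212 CPM.

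ISG15 had the widest spread in Red Angus. In F1 hybrids it measured 21.0, 39.6 and 124 CPM (lowest, median and highest), and in Droughtmaster 21.6, 98.4 and 286 CPM. Red Angus ranged from 18.6 CPM in replicate 5, the lowest of all 18 libraries, to 695 CPM in replicate 6, with a median of 156 CPM. The difference within that single breed was 37.4-fold. ISG15 was the only member whose F1 mean on the log2 scale lay below both parental means, at 5.47 in F1 hybrids, 6.31 in Droughtmaster and 6.92 in Red Angus.

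RSAD2, which encodes viperin, had nearly equal medians in the 3 breeds. It measured 6.87, 13.5 and 26.7 CPM (lowest, median and highest) in F1 hybrids, 5.32, 12.2 and 19.4 CPM in Droughtmaster, and 4.94, 13.0 and 73.8 CPM in Red Angus. The lowest and the highest library of all 18 were both Red Angus, replicates 2 and 6. The unadjusted share of its variance between breed means was 6.96%, the smallest among the members.

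The oligoadenylate synthetase genes had the largest ratios of highest to lowest library over all 18 animals, although within F1 hybrids ISG15 (5.91-fold) exceeded OAS2 (4.84-fold) and within Red Angus ISG15 exceeded both. OAS1Y measured 9.06, 36.3 and 97.4 CPM (lowest, median and highest) in F1 hybrids, 3.99, 43.2 and 68.1 CPM in Droughtmaster, and 12.8, 64.5 and 379 CPM in Red Angus. OAS2 measured 1.85, 3.71 and 8.98 CPM in F1 hybrids, 0.336, 4.68 and 11.2 CPM in Droughtmaster, and 4.39, 6.79 and 51.8 CPM in Red Angus. The range of OAS2 was 154-fold, with 7 and 8 reads in Droughtmaster replicates 4 and 5, so the low end rests on few reads.

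By mean log2 level, MX1, MX2, RSAD2, OAS1Y and OAS2 were highest in Red Angus, next in F1 hybrids and lowest in Droughtmaster. By mean CPM, OAS2 was slightly lower in F1 hybrids (4.61 CPM) than in Droughtmaster (5.08 CPM). By median the order was less regular. For RSAD2 the F1 median was the highest, and for ISG15, OAS1Y and OAS2 the F1 median was the lowest. These orders describe the samples, since no neighbouring breeds differed beyond their spread by the tests given next, after adjustment.

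The first breed comparison asked whether the parental breeds differ. With edgeR (quasi-likelihood F test, Benjamini-Hochberg adjusted over all features), 0 of the 6 members passed between Droughtmaster and Red Angus, against 2.6% of all features tested. MX1 alone had an unadjusted p under 0.05, as did 2856 of all features (19.8%). All 6 estimates were negative, as were 50.3% of all features. The members' median log2 fold change was -1.20, where the median of all features was -0.01. The 6 genes co-vary, so their signs are not independent. MX1 came nearest to the threshold, with a log2 fold change of -1.34 ± 0.389 (SE; 95% interval -2.17 to -0.51; adjusted p = 0.0645). It averaged 140 ± 64.2 CPM in Droughtmaster and 354 ± 256 CPM in Red Angus (SD, n = 6 each). The adjusted p by edgeR ran from 0.276 for MX2 to 0.571 for ISG15 among the other 5 members.

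Red Angus replicate 6 was the highest library in all 6 genes, so leaving it out was bound to lower the Red Angus means. The direction of the change was therefore set in advance, and only its size is informative. The differences were smaller without Red Angus replicate 6. The log2 fold change was then -0.89 for MX1 (edgeR adjusted p = 0.160), -0.50 for MX2, -0.33 for RSAD2, -0.42 for OAS1Y and -0.33 for OAS2. ISG15 changed sign, from -0.80 with all libraries to 0.04 without that animal. In the other direction, MX1 passed without Red Angus replicate 5 (-1.46, adjusted p = 0.0301) and by DESeq2's Wald test on all libraries (-1.33, adjusted p = 0.0191). More features passed in general there, 1407 and 1037, against 376 by edgeR on all libraries. Fitted on the parental breeds alone, MX1 had an adjusted p of 0.162, and without Droughtmaster replicate 3 it was 0.0717. Without that Droughtmaster library the log2 fold changes of the 6 members ran from -1.81 for OAS2 to -0.99 for ISG15, and 0 of 6 passed by edgeR.

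**Figure D2:**
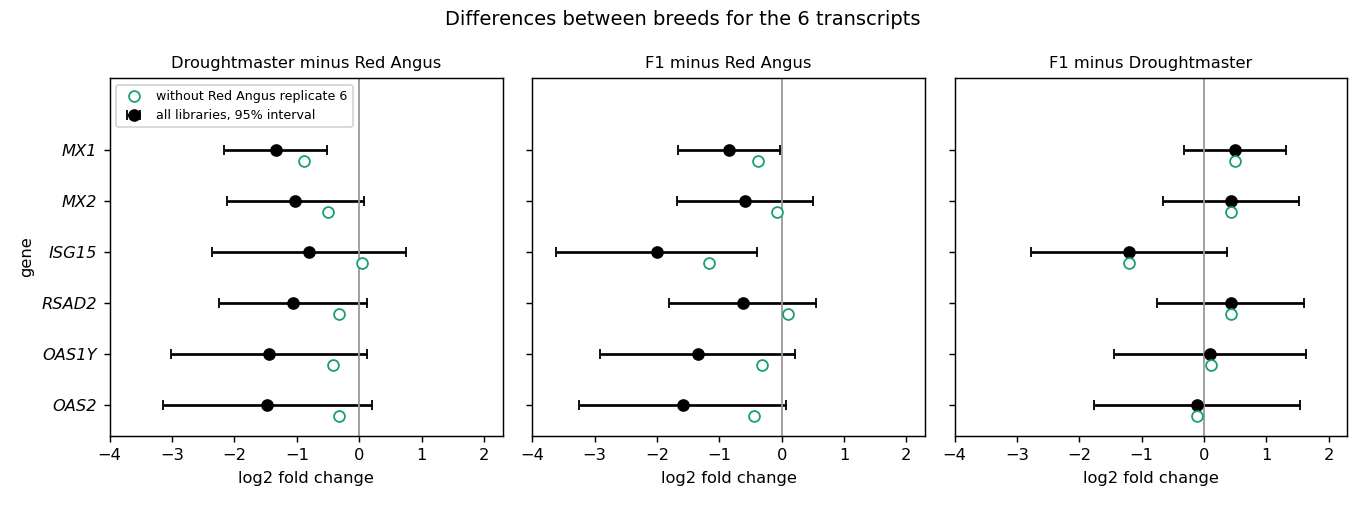
Log2 fold change of each transcript in the 3 breed comparisons, with the first-named breed over the second. Filled points are edgeR estimates from all 18 libraries with 95% intervals on 15 residual degrees of freedom, and open points are estimates without Red Angus replicate 6. The open points lie closer to 0 than the filled ones for all 6 genes in both comparisons against Red Angus. That animal was the highest library in all 6 genes, so the direction of the shift was set in advance.

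The second comparison set the hybrids against Red Angus. Again 0 of 6 members passed by edgeR, as did 0 of all 14446 features (0%), and DESeq2 called 0 members and 1 feature, while 466 features and 2 members had an unadjusted p under 0.05. All 6 estimates were negative, as were 55.4% of all features, and the median was -1.09 against -0.05 for all features. These signs are not independent either, and Red Angus replicate 6 was the highest library in all 6 genes. ISG15 had the largest difference, with a log2 fold change of -2.01 ± 0.753 (SE; 95% interval -3.61 to -0.40; unadjusted p = 0.0149, edgeR adjusted p = 1.00). It averaged 53.8 ± 39.2 CPM in F1 hybrids and 216 ± 248 CPM in Red Angus (SD, n = 6 each), and no F1 library lay below every Red Angus library. Without Red Angus replicate 6 its log2 fold change was -1.16. The other member with an unadjusted p under 0.05 was MX1, at -0.84 ± 0.385 (SE, edgeR unadjusted p = 0.0410). Its 95% interval ran from -1.66 to -0.02, and its log2 fold change was -0.39 without Red Angus replicate 6. OAS2 was below every Red Angus library in 4 of 6 F1 libraries, a count that was not set against all features. Its log2 fold change was -1.59 ± 0.781 (SE, edgeR unadjusted p = 0.0555), and -0.44 without Red Angus replicate 6. RSAD2 changed sign without that animal, from -0.62 to 0.11.

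Set against Droughtmaster, the hybrids gave no call either: 0 of 6 members passed by edgeR or DESeq2 and none had an unadjusted p under 0.05 by edgeR. Over all features, 1.18% passed by edgeR and 2041 (14.1%) had an unadjusted p under 0.05. Estimates ran from -1.20 ± 0.736 for ISG15 (adjusted p = 0.508) to 0.50 ± 0.384 for MX1 (adjusted p = 0.634). The intervals are wide: for OAS1Y, with an estimate of 0.10, the 95% interval ran from -1.44 to 1.64, so a 2-fold difference in either direction lies within it. Without Droughtmaster replicate 3 the estimates ran from -0.99 for ISG15 to 0.72 for MX1, and that of OAS2 was 0.28, against -0.12 with all libraries. The 3 breed comparisons share libraries and are not independent of each other.

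Against the mid-parent value, which averages the log2 levels of Droughtmaster and Red Angus, 0 of 6 members passed and 0% of all features did by edgeR (0 members and 57 features by DESeq2), with 863 features and 1 member at an unadjusted p under 0.05. That member was ISG15, with a log2 difference of -1.60 ± 0.680 (SE; 95% interval -3.05 to -0.15; unadjusted p = 0.0285, adjusted p = 0.778). Without Red Angus replicate 6 it was -1.18. MX1, MX2 and RSAD2 lay close to the mid-parent value, at -0.17, -0.08 and -0.10, and all 3 were positive without that animal. Without Droughtmaster replicate 3 the difference was -1.48 for ISG15, -0.03 for MX1, 0.06 for MX2 and 0.03 for RSAD2.

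Animals within a breed differed more for most members than for a typical gene. The pooled SD within breeds was 1.52 log2 CPM for ISG15, 1.53 for OAS2 and 1.05 for RSAD2, against a median of 0.677 over all features. Among features of similar level (within 0.5 log2 units), the SD of ISG15 was above that of 99.4% of 1421 features, and the SD of MX1 above that of 76.8% of 598. The hybrids had the smallest SD of the 3 breeds in 6 of 6 members, as they had in 47.2% of all features. The count was 5 without Red Angus replicate 6, where the SD of OAS2 was 0.821 log2 CPM in F1 hybrids and 0.413 in Red Angus, and 5 without Droughtmaster replicate 6. For MX1 the SD was 0.272 log2 CPM in F1 hybrids, 0.725 in Droughtmaster and 0.933 in Red Angus (n = 6 each). In a comparison added after these values were seen, the mean absolute deviation from the breed median of MX1 was 0.235 in F1 hybrids and 0.742 in Red Angus (exact permutation test, two-sided, p = 0.00649, adjusted p = 0.0649 over 18 tests). None of the 18 tests of spread passed the adjustment.

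Droughtmaster animals shared an order across the members. Replicates 1, 2 and 3 lay above replicates 4, 5 and 6 in 6 of 6 members, an order found in 2.58% of all features and singled out here after the values were seen. The lowest of replicates 1 to 3 was 1.55 times the highest of replicates 4 to 6 for MX1 and 4.39 times for OAS2, with the other members in between. For ISG15, replicates 1 to 3 measured 138, 286 and 216 CPM, and replicates 4 to 6 measured 58.4, 21.6 and 23.0 CPM. On the log2 scale the step between replicates 4 to 6 and replicates 1 to 3 was the breed's widest for MX2, RSAD2 and OAS2. It was not the widest for MX1, ISG15 and OAS1Y. For OAS1Y, replicates 6, 5 and 4 measured 2.04, 3.74 and 4.71 log2 CPM, and the lowest of replicates 1 to 3 measured 5.92. The labels name no property that separates these animals. Their libraries split the same way but in the opposite direction. Replicates 1 to 3 had 17374, 17399 and 17084 features with counts and replicates 4 to 6 had 17560, 18451 and 19605. The TMM factors were 0.424 to 1.03 in replicates 1 to 3 and 1.13 to 1.46 in replicates 4 to 6. The lowest, 0.424, belongs to replicate 3, the library with 44.6% of its counts on a single feature. The part of these measures in the order of the animals was not tested.

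**Figure D3:**
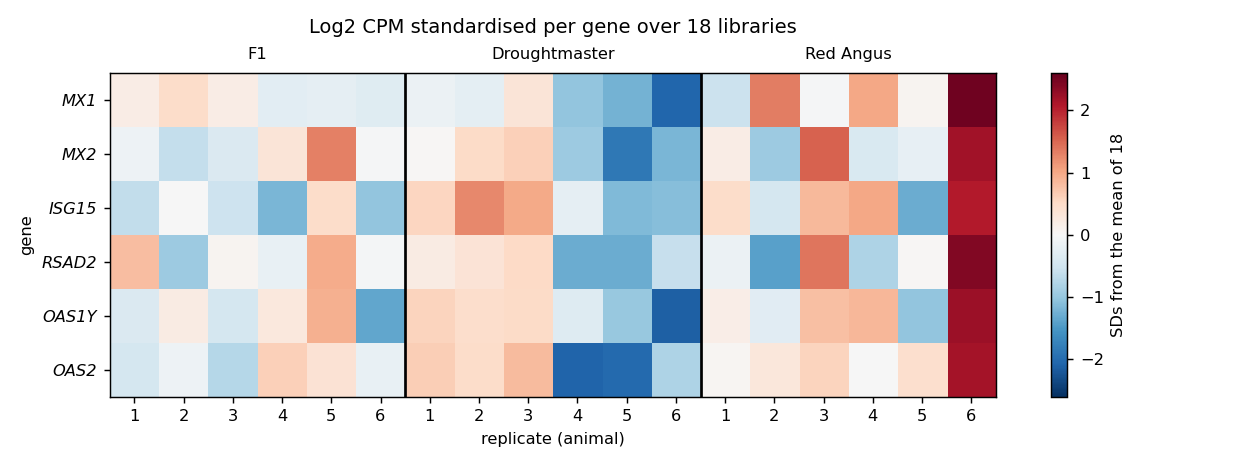
Log2 CPM of each transcript, standardised over the 18 libraries, with animals in columns by breed. Red marks values above the gene's mean and blue values below it. Red Angus replicate 6 is red in every row, Droughtmaster replicates 4 to 6 are blue in every row, and Red Angus replicates 2 and 4 are red for MX1 and blue for MX2 and RSAD2.

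Co-variation across animals was positive for all 15 pairs of members. Pearson's r of log2 CPM over 18 libraries ran from 0.427 to 0.911 with a median of 0.687, and 14 of 15 pairs passed (permutation test with 100000 resamples, two-sided, adjusted over 15 pairs). By Spearman's rho, the range was 0.218 to 0.860 and 7 of 15 pairs passed. Without Red Angus replicate 6 the median r was 0.529 and 6 of 15 pairs passed. That animal was the highest in every member, so leaving it out narrows the range and can lower r by itself. Without Droughtmaster replicate 3 the median was 0.679 and 14 pairs passed. Within F1 hybrids alone, r was positive in 12 of 15 pairs, with a median of 0.236 and a range of -0.702 (MX1 and MX2) to 0.671. Within Red Angus it was positive in 15 of 15 pairs, from 0.296 to 0.983 with a median of 0.699. Within Droughtmaster it was also positive in 15 of 15 pairs, from 0.622 to 0.994 (RSAD2 and OAS2) with a median of 0.846. None of these passed within a breed (n = 6; exact permutation tests, adjusted over 45 tests), and the difference between breeds was not tested. As a background, the median r of a member with the 14440 features that are no members lay between -0.04 and 0.03, and r reached 0.7 in 0.0762% (OAS2) to 0.492% (ISG15) of them. That share was not counted at lower r, where other pairs passed. Among 14445 features ranked by r with MX1, OAS1Y was 41, OAS2 61, ISG15 578, MX2 921 and RSAD2 1846.

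MX2 and RSAD2 were the most tightly linked pair, a GTPase gene and the viperin gene. Their r was 0.911 (permutation p = 1e-05, the smallest that these resamples can give, adjusted p = 7.5e-05) and their rho 0.860 (adjusted p = 0.0003). Each was the feature most correlated with the other among all 14445 other features. Without the 2 libraries farthest from the MX2 median, Droughtmaster replicate 5 and Red Angus replicate 6, r was 0.856 (permutation adjusted p = 0.00075). Within breeds r was 0.671 in F1 hybrids and 0.982 in Red Angus (n = 6 each; exact permutation p = 0.146 and 0.00278, adjusted p = 0.270 and 0.05 over 45 tests within breeds).

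ISG15 and OAS1Y formed the other close pair. Their r was 0.861 and their rho 0.806 (permutation adjusted p = 7.5e-05 and 0.000675), and each again ranked 1 among the features correlated with the other. Without Droughtmaster replicate 2 and Red Angus replicate 6, r was 0.815 (adjusted p = 0.00105). Within breeds it was 0.666 in F1 hybrids and 0.983 in Red Angus (n = 6 each; exact permutation adjusted p = 0.270 and 0.05). Within Droughtmaster (n = 6) r was 0.901 for this pair and 0.929 for MX2 and RSAD2 (exact permutation adjusted p = 0.125 and 0.131).

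OAS2 followed MX2 more closely than its own neighbour. The r of MX2 and OAS2 was 0.813 (rho 0.792; permutation adjusted p = 0.0006 and 0.0011), and MX2 was the feature most correlated with OAS2. OAS1Y and OAS2, whose RefSeq genes overlap, had an r of 0.670 (rho 0.697; permutation adjusted p = 0.00502 and 0.00637), which was 0.519 without the 2 libraries farthest from the OAS1Y median. The neighbours MX1 and MX2 had an r of 0.513 and a rho of 0.218 (permutation adjusted p = 0.0317 and 0.384). Without Red Angus replicate 6 and Droughtmaster replicate 6 their r was 0.087 (permutation adjusted p = 0.805). Those libraries were left out as the farthest from the MX1 median, which narrows the range and can lower r by itself. The difference between these correlations was not tested.

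MX1 was the member that followed the others least. With RSAD2 its r was 0.427 and its rho 0.249 (permutation adjusted p = 0.0769 and 0.342), and without the 2 libraries farthest from the MX1 median it was -0.012. Red Angus replicates 2 and 4 and F1 replicate 2 ranked 2, 3 and 4 for MX1, at 415, 345 and 256 CPM. The same libraries ranked 18, 14 and 15 for RSAD2, at 4.94, 7.63 and 6.87 CPM, and 16, 13 and 14 for MX2. They had the fewest features with counts, 15790, 15855 and 15507, and the lowest values on the first principal component of all features. With that component removed by a linear fit, the r of MX1 and RSAD2 was 0.670 (permutation adjusted p = 0.0048). That of MX1 and MX2 was 0.608 (0.513 before) and that of MX1 and OAS2 was 0.725 (0.687 before). The r of MX1 and ISG15 fell to 0.445 (0.554 before, permutation adjusted p = 0.0635, no longer passing). That of MX1 and OAS1Y also fell, to 0.604. With the component itself, MX1 had an r of -0.529 and RSAD2 an r of 0.236. Because these signs are opposite, removing the component raises the r of MX1 and RSAD2 by itself. The fit therefore cannot show the part of library composition in the pattern, which was not tested.

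**Figure D4:**
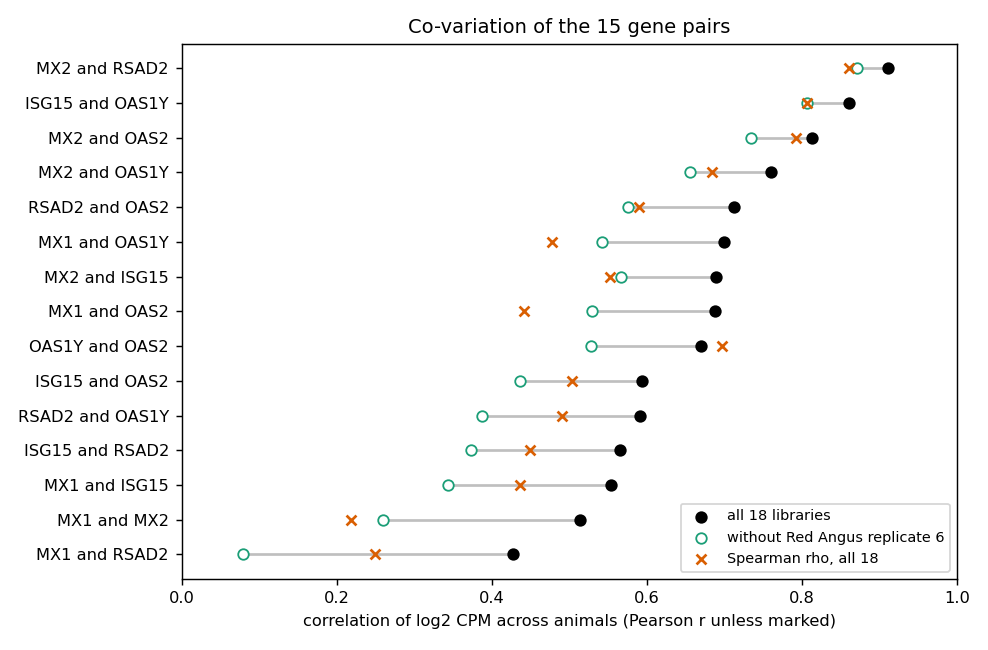
Correlation of log2 CPM for each of the 15 pairs. Filled points are Pearson's r over 18 libraries, open points r without Red Angus replicate 6 and crosses Spearman's rho over 18 libraries. MX2 with RSAD2 and ISG15 with OAS1Y stay above 0.8 by all 3 measures, and the pairs of MX1 with RSAD2 and with MX2 fall furthest.

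Library measures moved with some members. The number of features with counts correlated with ISG15 at a rho of -0.703 (permutation p = 0.00161, adjusted p = 0.0290 over 18 tests) and an r of -0.554 (adjusted p = 0.100), and r was -0.588 without the 2 libraries farthest from the median feature count. For MX1 and OAS1Y the r was -0.541 and -0.532 (permutation adjusted p = 0.100 each). MX2, RSAD2 and OAS2 had an r between -0.207 and 0.201 with the same measure. Total counts did not pass with any member, with r between -0.189 for ISG15 and 0.405 for MX1. The part of these measures in the levels was not tested.

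**Figure D5:**
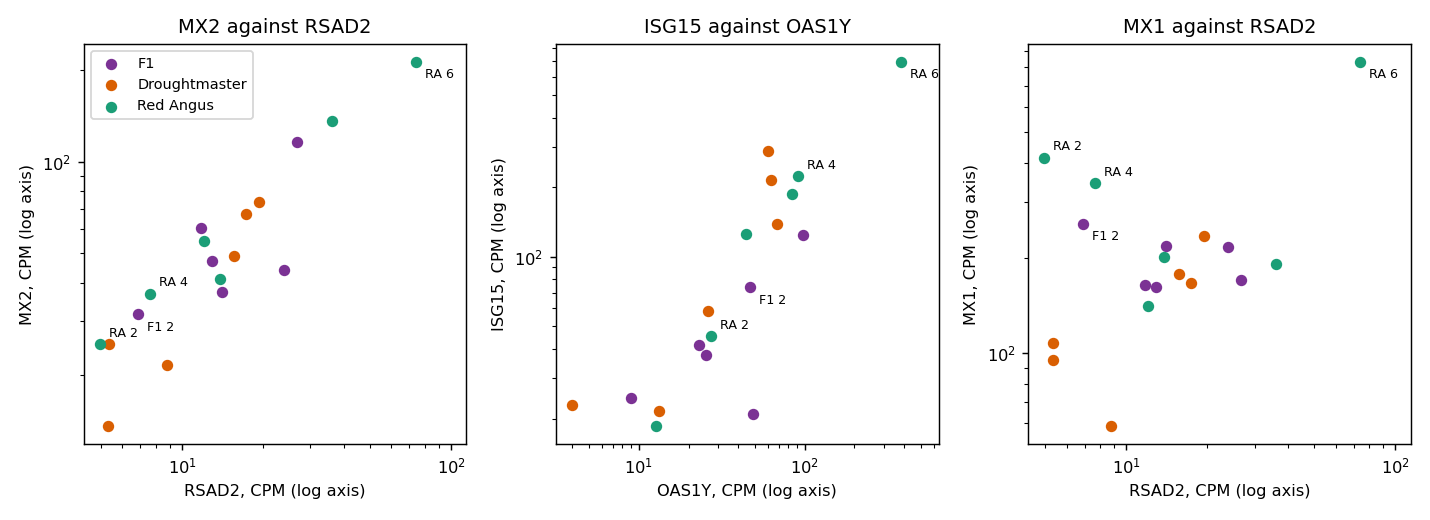
CPM of paired transcripts in the 18 libraries, both axes logarithmic, coloured by breed. Red Angus replicates 2, 4 and 6 (RA 2, RA 4, RA 6) and F1 replicate 2 are named. MX2 with RSAD2 and ISG15 with OAS1Y lie along a line, whereas in the panel of MX1 against RSAD2 the libraries RA 2, RA 4 and F1 2 lie above the rest at low RSAD2.

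Over 13034 other features averaging 1 CPM or more, the identifiers most like the members were ENSBTAG00000012406 and ENSBTAG00000053807, by the mean Pearson r with the 6 genes over 18 libraries. The first had a mean r of 0.742 (0.675 to 0.826 over the members). It had median levels of 38.5 CPM in F1 hybrids, 35.7 in Droughtmaster and 50.9 in Red Angus, and its highest library was Red Angus replicate 6 at 308 CPM. The second had a mean r of 0.734 and reached 579 CPM in the same library. The identifiers least like the members were ENSBTAG00000033642 and ENSBTAG00000052173, with a mean r of -0.655 and -0.622. Both had their lowest level in Red Angus replicate 6, at 0 and 0.831 CPM. They are low features, averaging 1.01 and 3.34 CPM over all libraries. Their medians were 0.393 and 3.14 CPM in F1 hybrids, 2.17 and 4.99 in Droughtmaster, and 0.242 and 1.45 in Red Angus. The files do not pair these identifiers with names, so no role is given.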

How the data were processed

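The authors deposited raw read counts per gene for 18 leukocyte libraries. The tools named, per the submitters' processing notes, are DESeq2 1.16.1, featureCounts 1.5.0-p3 and HISAT2 2.0.5, and the build is ARS-UCD1.2. The annotation release and strand setting were not given in the sources used here.

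Tests of the counts used edgeR 4.0.16 (R 4.3.3). filterByExpr by breed kept 14446 of 30162 features. TMM scaling was used, and all 18 libraries entered a single quasi-likelihood fit (robust, two-sided, Benjamini-Hochberg over all features, threshold 0.05). Standard errors were derived from the F statistic, and 95% intervals use 15 residual degrees of freedom. A prior count of 2 was added for log2 CPM. Correlations were computed in Python 3.11.15 with permutation tests of 100000 resamples, exact within breeds. All pairs of libraries differed by more than sampling noise (the lowest chi-square statistic was 49.9 times its degrees of freedom, over features averaging at least 10 counts). Both procedures were tested on simulated data.

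The members and lists were chosen with earlier results of these data known. The genes named are the 6 members and, of the rest, the 2 identifiers with the highest and the 2 with the lowest mean r. The 11 lists of other interferon genes and cell type markers could not be used, because 0 of their symbols could be paired with an identifier, and a motif and protein comparison was not made because no sequences were at hand. Alternatives were DESeq2 1.42.0, RLE size factors, no filter, only the breeds compared, each library left out, and for correlations Spearman's rho, breed-centred values, a prior count of 0.5 and removal of the first principal component.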

Additional observations from a re-analysis of the deposited data

Results flagged for a closer look

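Each of the 18 combinations of gene and breed was checked for a library far from the other 5, by the gap to its nearest neighbour as a share of the breed's range in CPM (Dixon's test at its 95% critical value). Chance flags about 1 in 20 such groups if values are normally distributed, a rate that need not hold for CPM. The 6 genes co-vary, so the flags are not independent. Red Angus replicate 6 stood apart for OAS2 (0.910), OAS1Y (0.786) and ISG15 (0.697). It measured 8.34, 8.49 and 5.55 times the median of the other 5 Red Angus animals in those genes, and 4.12, 5.13 and 6.12 times in MX1, MX2 and RSAD2. On the log2 scale, it stood apart for OAS2 (0.726) but not for OAS1Y (0.422) or ISG15 (0.313). F1 replicate 5 stood apart for MX2 (0.656), at 116 CPM, which was 2.64 times the median of the other 5 hybrids. It was 3.82 times that median for OAS1Y and 0.785 times for MX1. On the log2 scale F1 replicate 5 did not stand apart for MX2 (0.498).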

How the results depend on the processing

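Of the members' log2 fold changes under all alternatives, 500 kept their direction and their side of the threshold, 2 passed newly and 20 changed sign, all 20 on leaving out a single animal. Members passing between Droughtmaster and Red Angus numbered 1 by DESeq2 and 0 to 1 over the libraries left out. The log2 fold changes that turned sign ranged from -1.19 to 0.041 for ISG15 in Droughtmaster minus Red Angus, and from -0.84 to 0.11 for RSAD2 in F1 minus Red Angus. In F1 minus Droughtmaster they ranged from -0.31 to 0.34 for OAS1Y and -0.42 to 0.28 for OAS2. Against mid-parent they ranged from -0.25 to 0.058 for MX1, -0.37 to 0.19 for MX2 and -0.25 to 0.27 for RSAD2.

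The 376 features that passed between Droughtmaster and Red Angus became 1037 by DESeq2, 236 without a filter, 56 with only those breeds in the fit, and 143 (without Droughtmaster replicate 6) to 1407 (without Red Angus replicate 5). The 171 for F1 against Droughtmaster became 622 by DESeq2 and 65 (without F1 replicate 1) to 335 (without Droughtmaster replicate 1). DESeq2 called 1 feature for F1 against Red Angus and 57 against mid-parent. Correlated pairs numbered 14, 7 by Spearman's rho, 13 with breed means removed and 6 to 15 over the libraries left out, with 6 only without Red Angus replicate 6. The cause of these shifts was not tested. No paired analysis was possible because the labels give the animals no shared replicate numbers.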
